A study of Homo sapiens with 9 samples.

Results

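The genes described here are 36 human genes of protein folding in the endoplasmic reticulum (ER) and of the unfolded protein response, chosen by symbol from the 21619 genes counted. They fall into 12 lumenal chaperones and co-chaperones, 2 lectin chaperones, 9 genes of disulfide formation, 9 genes of ER-associated degradation, and 4 genes made up of the sensors and the transcription factor XBP1. All 36 passed the filter on low counts and were among the 13458 genes tested.

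The study injected MDA-MB-231 cells, an established triple-negative human breast cancer line, into the mammary fat pad of mice, either alone or with human bone marrow mesenchymal stem cells (MSC) at a 1:1 ratio. The cancer cells of both groups carried EGFP-L10a, a ribosomal protein fused to a green fluorescent protein, so that their polysomes could be pulled out of a whole tumour lysate with an antibody to the fluorescent protein and the bound RNA sequenced (translating ribosome affinity purification, TRAP). Tumours were collected 3 weeks after injection, each from a different mouse: 5 with MSC (tumours 1, 6, 7, 10 and 15) and 4 without (tumours 9, 11, 12 and 13). Neither the MSC nor the mouse host cells are labelled as carrying the tag, and the sources used here do not give the strain, age or immune status of the mice.

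Proteins that enter the ER are folded with the help of the Hsp70-type chaperone BiP, the product of HSPA5, and its co-chaperones, while glycoproteins pass through the lectin chaperones calnexin and calreticulin. Protein disulfide isomerases form and shuffle disulfide bonds and are re-oxidised by the ERO1 oxidases, and proteins that fail to fold are recognised by EDEM lectins and sent back to the cytosol through the HRD1 and Derlin machinery for degradation. When unfolded proteins accumulate, the sensors ATF6, IRE1 (the product of ERN1) and PERK (the product of EIF2AK3) start a transcriptional programme, in which the cleaved ATF6 fragment and the spliced form of XBP1 raise the chaperones themselves. Secretory cells depend on this system, and tumour cells use it under low oxygen, low glucose or a high secretory load.

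A sequence shared by many of these promoters is the ER stress response element (ERSE), at which ATF6 acts together with the factor NF-Y. It was searched for on both strands as CCAAT and CCACG with 9 free bases between them, and a shorter form, ERSE-II, as ATTGG and CCACG with 1 free base between them, in the RefSeq windows that run from 250 bases before to 50 bases after a gene's start (GRCh38.p14). Such windows were found for 33 of the 36 genes, all but PDIA3, DERL1 and DERL3. An exact ERSE lay in 8 of the 33 genes, or 24.2%, against 25 of 27305 genes with a window, or 0.0916%. The 9 matches, each with 5 bases on either side, are shown because they tie chaperones, a disulfide isomerase and XBP1 to one element. They are written along the gene's own strand, with the fixed letters of the motif in capitals.
HSPA5 (chr9:125241386-125241414, minus strand): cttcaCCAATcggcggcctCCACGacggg
HSP90B1 (chr12:103930211-103930239, plus strand): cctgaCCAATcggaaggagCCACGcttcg
HSP90B1 (chr12:103930316-103930344, plus strand): gggtgCGTGGtgcggcgcgATTGGtgggt
CRELD2 (chr22:49918549-49918577, plus strand): cctctCGTGGcgaactcggATTGGgccat
CALR (chr19:12938379-12938407, plus strand): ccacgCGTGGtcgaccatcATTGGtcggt
CANX (chr5:179698773-179698801, plus strand): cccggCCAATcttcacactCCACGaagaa
PDIA6 (chr2:10812848-10812876, minus strand): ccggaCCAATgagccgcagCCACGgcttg
ERO1LB (chr1:236282178-236282206, minus strand): gcccgCGTGGtcccgcctcATTGGccgcc
XBP1 (chr22:28800598-28800626, minus strand): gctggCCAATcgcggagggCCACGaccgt

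The shorter ERSE-II was found in 3 of the 33 genes, or 9.09%, against 19 of all genes with a window, or 0.0696%. HYOU1 held 2 copies, SDF2L1 held 1 and HERPUD1 held 1, shown in the same way.
HYOU1 (chr11:119057375-119057395, minus strand): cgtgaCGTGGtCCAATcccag
HYOU1 (chr11:119057269-119057289, minus strand): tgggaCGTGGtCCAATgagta
SDF2L1 (chr22:21642109-21642129, plus strand): ggaagCGTGGaCCAATcaaaa
HERPUD1 (chr16:56932020-56932040, plus strand): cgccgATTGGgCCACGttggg

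The ERSE was first described from promoters of this gene family, so its share among the 36 genes is not an independent observation. The XBP1 and ATF6 element UPRE (TGACGTGG), which contains the reverse complement of the last 5 letters of ERSE, lay in 4 of the 33 genes (HYOU1, DNAJC10, TXNDC5 and TXNDC11), or 12.1%, against 0.927% of all genes, and in HYOU1 it overlaps the first ERSE-II copy. The ATF4 composite site (TGATGNAA) lay in HERPUD1 alone, 3.03% of the 33 genes, against 4.46% of all genes. The HSPA5 promoter is given whole, from 250 bases before the start up to the start, because HSPA5 is the reference target of the response and the most abundant gene among those with the firmest rise below. Its exact ERSE, in capitals, lies 66 to 48 bases before the start.
HSPA5 promoter (chr9:125241344-125241593, minus strand): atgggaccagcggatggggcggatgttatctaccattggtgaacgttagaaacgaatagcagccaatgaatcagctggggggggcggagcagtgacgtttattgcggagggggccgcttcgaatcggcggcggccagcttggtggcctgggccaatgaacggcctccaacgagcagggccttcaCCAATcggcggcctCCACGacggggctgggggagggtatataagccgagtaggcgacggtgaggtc

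Polysome-bound RNA of ER folding genes was higher in tumours with MSC, and each of the 5 functional groups held at least 1 gene that rose. Of the 36 genes, 14 rose and 0 fell at a Benjamini-Hochberg adjusted p under 0.05 in edgeR's quasi-likelihood test over all 13458 genes. In the background of all genes tested 7.78% were called, 4.18% higher and 3.6% lower. At 10 CPM (counts scaled to a common library size) or more, 14 of 30 members rose, against 5.52% of all genes at such levels. The genes that rose were HSPA5, HYOU1, DNAJB9 and CRELD1 among the lumenal chaperones, CALR and CANX, the disulfide genes P4HB, PDIA4, PDIA6 and ERO1L, the degradation genes HERPUD1, EDEM1 and DERL1, and XBP1. Their rises were modest, from 1.29-fold for DERL1 to 1.75-fold for CRELD1. The log2 change with MSC was positive in 34 of the 36 genes with a median of 0.36, beside 51.1% positive and a median of 0.01 over all genes tested. At an unadjusted p under 0.05, 21 genes were higher and 0 lower, but the share of all genes at that cut was not counted. DESeq2 and limma-voom also called 0 lower.

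The rise did not rest equally on all tumours. HSPA5, HYOU1, DNAJB9, CRELD1 and PDIA6 were called in all 9 fits that left out 1 tumour, while the other 9 lost the call in at least 1 of them. Only the lumenal chaperones and the genes of disulfide formation held a called gene in all 9 of these fits. The number of genes that rose was 5 without tumour 10, 9 or 12, 7 without tumour 1, 8 without tumour 6, 9 without tumour 11, 10 without tumour 7, 12 without tumour 15 and 16 without tumour 13, and the share of all genes higher moved with it, from 1.11% to 7.31%. The 34 positive changes kept their sign in every one of these fits.

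**Figure D1:**
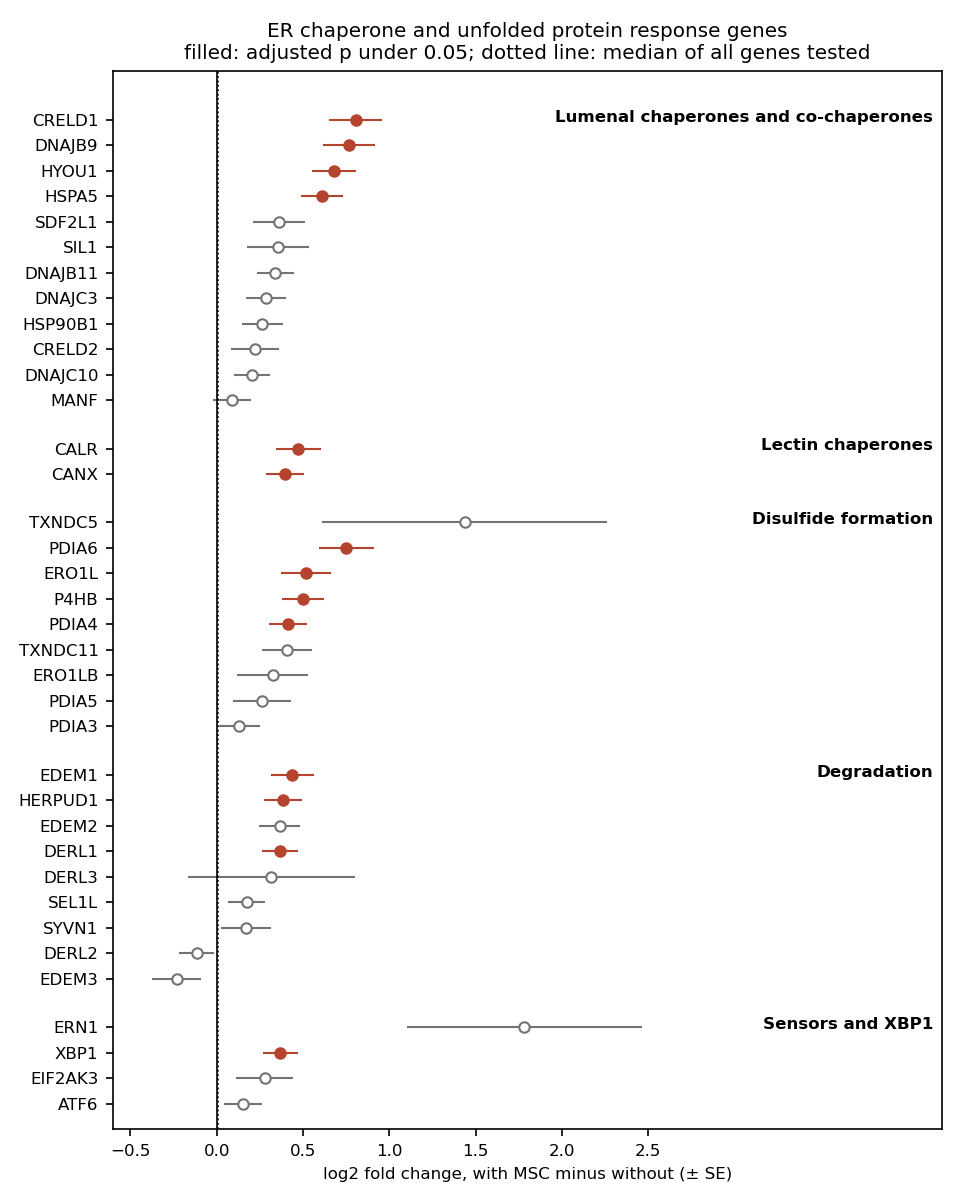
Log2 fold change of each of the 36 genes, with MSC minus without, ± SE, grouped by function; filled points have an edgeR adjusted p under 0.05, and the dotted line is the median of all genes tested, 0.01. Points lie to the right of 0 for 34 genes, and only DERL2 and EDEM3 lie to the left.

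Levels below are in CPM with TMM factors, as means ± SD (n = 5 with MSC, n = 4 without). Log2 changes are given ± SE. Because the RNA is bulk RNA bound to tagged ribosomes, a rise in some of the tagged cells and a rise in all of them cannot be told apart. Without total tumour RNA, RNA abundance and ribosome association cannot be told apart either. The p-values measure the spread between tumours of different mice.

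Lumenal chaperones hold unfolded chains in the ER, and 4 of the 12 rose, with all 12 changes positive and a median log2 change of 0.35. HSPA5 encodes BiP, which also holds the sensors inactive. Its level was 306, 356, 326 and 385 CPM in tumours 9, 11, 12 and 13 without MSC, and 500.0, 639.8, 479, 551 and 449 CPM in tumours 1, 6, 7, 10 and 15 with MSC. Every tumour with MSC was above every tumour without, and tumour 6 was the highest. The means were 524 ± 74.6 against 343 ± 34.5 CPM, a log2 change of 0.61 ± 0.12 (edgeR adjusted p = 0.00641) that stayed between 0.52 and 0.67 when any 1 tumour was left out.

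HYOU1 encodes a large Hsp70-like chaperone that also serves as a nucleotide exchange factor for BiP. It was at 50.6, 65.6, 51.3 and 78.7 CPM without MSC and at 91.7, 90.1, 98.4, 101 and 112 CPM with MSC, in the same order of tumours as used throughout. Here tumour 15 was the highest and tumour 13 came closest to the MSC group without reaching it. The log2 change was 0.68 ± 0.13 (edgeR adjusted p = 0.00499).

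DNAJB9, also called ERdj4, is a J-domain co-chaperone of BiP that acts in degradation and restrains IRE1. It was at 20.4, 15.7, 14.5 and 23.9 CPM without MSC and at 30.9, 32.9, 35.7, 34.9 and 24.4 CPM with MSC. The groups did not overlap, but tumour 15 with MSC was only just above tumour 13 without. The log2 change was 0.77 ± 0.15 (edgeR adjusted p = 0.00666). CRELD1, an EGF-domain protein of the ER related to CRELD2, was at 10.98, 12.8, 8.73 and 14.4 CPM without MSC and 21.9, 23.4, 17.3, 21.1 and 19.0 CPM with MSC. With a log2 change of 0.80 ± 0.15 (edgeR adjusted p = 0.00559), it had the largest change among the 14 genes called.

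The related gene CRELD2, a secreted ER stress marker, had 19.9 ± 3.96 CPM without MSC and 23.1 ± 1.70 CPM with MSC (log2 0.22 ± 0.14, edgeR adjusted p = 0.334), and its groups overlapped. HSP90B1 encodes GRP94, the ER form of Hsp90. It had 385, 475, 477 and 505 CPM without MSC and 486, 643, 494, 608 and 532 CPM with MSC. Tumours 1 and 7 with MSC were below tumour 13 without, and the log2 change of 0.26 ± 0.12 (95% interval 0.03 to 0.50) did not pass (edgeR adjusted p = 0.177).

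The other lumenal genes not called were SDF2L1, a partner of the BiP cycle (log2 0.36 ± 0.15), the exchange factor SIL1 (0.35 ± 0.18), and the J-domain co-chaperones DNAJB11 (0.34 ± 0.11), DNAJC3 (0.29 ± 0.11) and DNAJC10 (0.20 ± 0.10). DNAJB11 was the nearest to a call, with 83.0 ± 7.53 against 65.6 ± 6.96 CPM and an edgeR adjusted p of 0.0546. In all 3 J-domain genes the groups did not overlap, though DNAJC10 was separated by little, 45.9 CPM in tumour 1 against 45.8 CPM in tumour 9. MANF, a secreted protein retained by BiP, was at 176 ± 18.5 CPM with MSC and 165 ± 17.2 CPM without. Its log2 change of 0.09 ± 0.11 (95% interval -0.12 to 0.30) was the smallest positive change among the 36 genes.

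**Figure D2:**
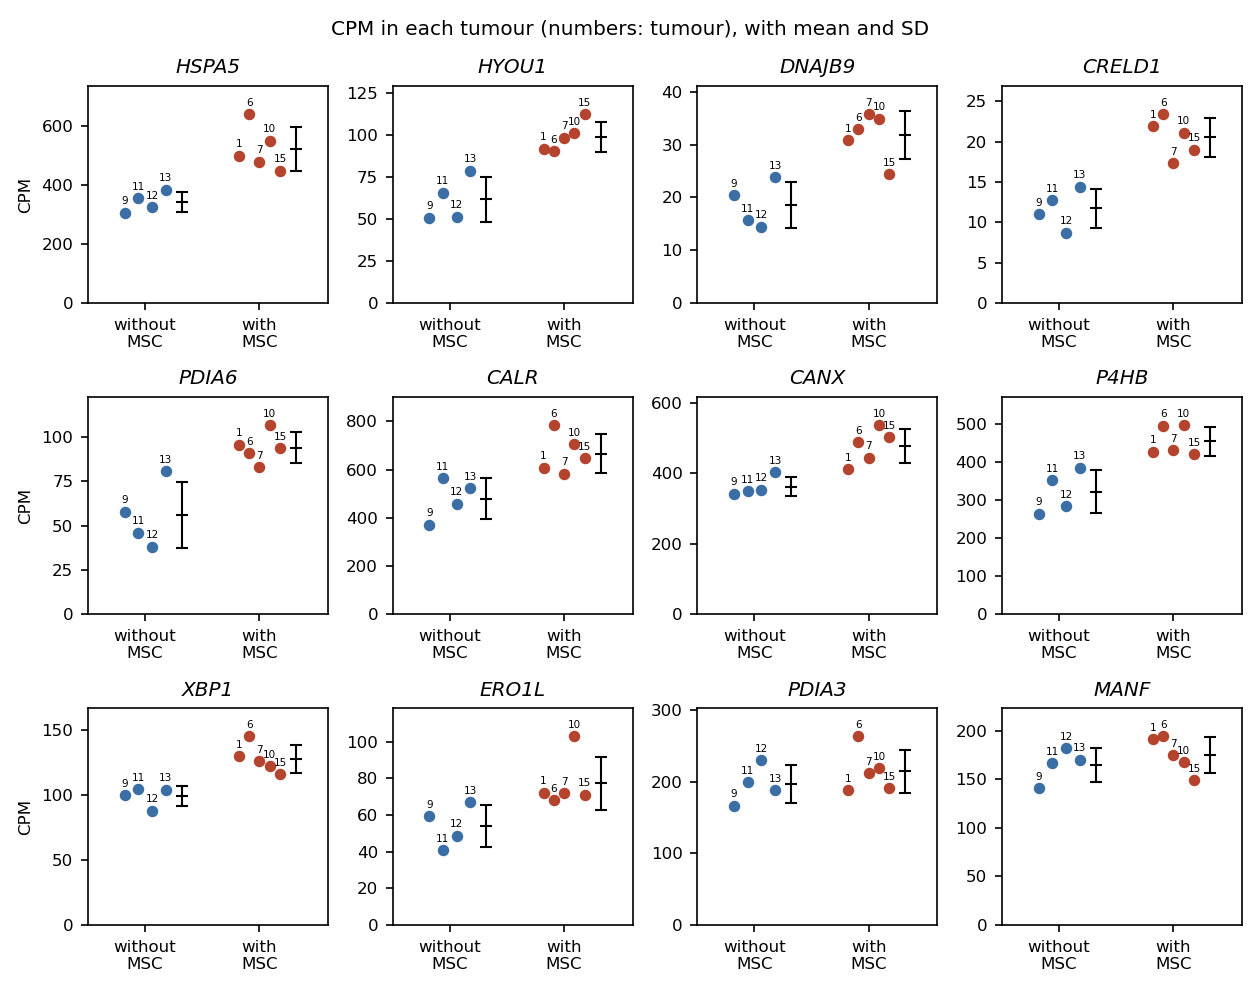
TMM-scaled CPM of 12 of the genes in each tumour (points, labelled by tumour number), with the mean and SD of each group; 10 of them rose, and PDIA3 and MANF are shown as genes that did not pass. In the 10 genes that rose the points of the 2 groups do not overlap, while PDIA3 and MANF have points of both groups at the same height.

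Both lectin chaperones rose, with a median log2 change of 0.44. CALR encodes calreticulin, which binds glucosylated glycoproteins and calcium in the ER lumen. It was at 371, 565, 459 and 523 CPM without MSC and 608, 784, 582, 705 and 648 CPM with MSC. Tumour 11 without MSC was close to tumour 7 with MSC, and tumour 6 was again the highest. The log2 change of 0.47 ± 0.13 passed (edgeR adjusted p = 0.0327), but the call was lost without any one of tumours 1, 6, 10, 9 or 12.

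CANX encodes calnexin, the membrane-bound partner of calreticulin. It was at 342, 349.7, 354 and 403 CPM without MSC and 412, 489, 445, 536 and 502 CPM with MSC. Tumours 1 and 13 marked the narrow gap between the groups. The log2 change was 0.40 ± 0.11 (edgeR adjusted p = 0.0324), and the call was lost without any one of tumours 6, 10, 9, 11 or 12.

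Of the 9 genes of disulfide formation 4 rose, and all 9 changes were positive with a median of 0.41. PDIA6, an isomerase that works with BiP and attenuates IRE1 signalling, was at 57.8, 46.0, 38.1 and 80.9 CPM without MSC and 95.7, 91.0, 82.8, 107 and 93.6 CPM with MSC. The tumours with MSC lay close together, while those without spread from tumour 12 to tumour 13, which nearly reached tumour 7. The log2 change was 0.75 ± 0.16 (edgeR adjusted p = 0.0114), and it ranged from 0.61 to 0.99 when 1 tumour was left out. P4HB, the archetypal protein disulfide isomerase and a subunit of collagen prolyl hydroxylase, was at 264, 352, 284 and 385 CPM without MSC and 427, 495, 429.9, 496 and 421 CPM with MSC. All tumours with MSC were above tumour 13, the highest of those without, and the log2 change of 0.50 ± 0.12 (edgeR adjusted p = 0.0189) was called in 6 of the 9 fits with 1 tumour left out, failing without tumours 10, 9 or 12.

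PDIA4, a multi-domain isomerase known as ERp72, was at 60.7, 84.1, 76.3 and 81.1 CPM without MSC and 101, 113, 90.8, 103 and 94.2 CPM with MSC. Tumour 9 was the lowest of the 9, and the groups did not overlap. Its log2 change was 0.41 ± 0.11 (edgeR adjusted p = 0.0291), lost without any one of tumours 1, 6, 10, 9 or 12. ERO1L, now ERO1A, encodes the oxidase that passes electrons from the isomerases to oxygen, and it is also induced by low oxygen. It was at 59.6, 40.8, 48.7 and 66.9 CPM without MSC and 72.2, 68.1, 72.1, 103 and 71.1 CPM with MSC. Tumour 10 stood well above the other 4 tumours with MSC, and tumour 6 was just above tumour 13. The log2 change was 0.52 ± 0.14 (edgeR adjusted p = 0.0353), and of the fits with 1 tumour left out it was called in those without tumour 6, 15 or 13. With the correction for GC content and length, P4HB and PDIA4 no longer passed, and with scaling by library size only ERO1L did not.

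The other genes of this group did not pass. PDIA3 encodes ERp57, the isomerase that works with calnexin and calreticulin, yet its level was 215 ± 30.1 CPM with MSC and 196 ± 26.5 CPM without, and the log2 change was 0.13 ± 0.12 (95% interval -0.10 to 0.36). The near-identical pseudogene PDIA3P took 299 to 997 counts per tumour and was itself higher with MSC (log2 0.56, edgeR adjusted p = 0.0134), so the PDIA3 count is uncertain. TXNDC11 (log2 0.41 ± 0.15), PDIA5 (0.26 ± 0.17) and ERO1LB, the second ERO1 oxidase, now ERO1B (0.32 ± 0.21), were also positive. ERO1LB was scarce, at 4.30 ± 0.586 CPM with MSC and 3.44 ± 0.357 CPM without.

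TXNDC5, an isomerase also called ERp46, varied more than any gene of its group. It was at 2.23, 0.785, 0 and 5.65 CPM without MSC and 6.77, 3.44, 6.55, 6.79 and 6.80 CPM with MSC. Tumour 12 had no count, which allows up to 0.124 CPM (3 counts) there, and tumour 13 was above tumour 6, so the groups overlapped. The log2 change of 1.44 ± 0.82 did not pass (edgeR adjusted p = 0.33). TXNDC5 shares exons with the read-through gene MUTED-TXNDC5, so its count is uncertain. The other members whose exons overlap a second counted gene in GENCODE 29 are DNAJB9, DNAJB11, PDIA3, PDIA6, TXNDC11, SYVN1 and DERL3. For the 2 of these that rose, the overlapping gene did not pass. THAP5, next to DNAJB9, had 725 to 2245 counts per tumour and a log2 change of -0.15 (edgeR adjusted p = 0.448). ATP6V1C2, next to PDIA6, had at most 41 counts in any tumour. How reads in the shared exons were assigned is not known, and their part in the DNAJB9 and PDIA6 counts was not tested.

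Among the 9 genes of ER-associated degradation 3 rose, with 7 changes positive, 2 negative and a median of 0.32. HERPUD1, a membrane protein that organises the HRD1 complex, was at 59.8, 60.2, 64.0 and 62.0 CPM without MSC and 84.9, 83.3, 94.0, 73.2 and 65.9 CPM with MSC. The tumours without MSC hardly differed from one another, and tumour 15 was only just above them. Its log2 change was 0.39 ± 0.11 (edgeR adjusted p = 0.0376), and of the 9 fits with 1 tumour left out only those without tumour 15 or 13 kept the call. It was not called by limma-voom. EDEM1, which directs mannose-trimmed glycoproteins to degradation, was at 34.0, 29.4, 28.1 and 38.0 CPM without MSC and 41.1, 39.7, 39.9, 52.1 and 46.7 CPM with MSC. All tumours with MSC were above tumour 13, and the log2 change was 0.44 ± 0.12 (edgeR adjusted p = 0.036), kept only in the fits without tumour 6, 7 or 13 and lost with scaling by library size only.

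DERL1, a Derlin of the exit channel, was at 67.6, 71.6, 61.5 and 83.4 CPM without MSC and 90.2, 97.3, 90.3, 88.5 and 91.3 CPM with MSC. The tumours with MSC lay close together above tumour 13. The log2 change of 0.37 ± 0.10 (edgeR adjusted p = 0.0371) was the least stable of the 14 calls, made in 1 of the 9 fits, the one without tumour 13, and lost with library size only, limma-voom and thinning. EDEM2, which makes the first mannose cut, had a change of the same size, 33.8 ± 3.52 against 26.2 ± 2.99 CPM (log2 0.37 ± 0.12, edgeR adjusted p = 0.0637), and its groups did not overlap.

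SEL1L and SYVN1 encode the adaptor and the ubiquitin ligase at the core of the HRD1 complex. Their log2 changes were 0.17 ± 0.11 (95% interval -0.04 to 0.39) and 0.17 ± 0.14 (95% interval -0.11 to 0.46). The 2 genes with negative changes were EDEM3, at 22.0 ± 3.23 CPM with MSC and 25.8 ± 4.54 CPM without (log2 -0.23 ± 0.14), and DERL2, at 81.2 ± 7.30 and 88.0 ± 5.25 CPM (log2 -0.12 ± 0.10). Their intervals, -0.51 to 0.04 and -0.31 to 0.08, both include 0. DERL3 had 21 to 63 counts per tumour, and its log2 change of 0.32 ± 0.49 was not informative at this depth.

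The sensors themselves did not pass, and XBP1 did. XBP1 encodes the transcription factor that IRE1 activates by splicing its mRNA, and gene counts do not separate the spliced form. It was at 99.6, 104, 87.7 and 104 CPM without MSC and 129.5, 145, 126, 122 and 115 CPM with MSC. The groups did not overlap, tumour 6 was the highest and tumour 12 the lowest. The log2 change was 0.37 ± 0.10 (edgeR adjusted p = 0.0327), kept only in the fits without tumour 15, 11 or 13 and not called by limma-voom.

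ATF6 was at 31.4, 28.7, 35.2 and 36.7 CPM without MSC and 34.8, 37.4, 38.3, 37.0 and 36.1 CPM with MSC. Tumours 12 and 13 without MSC lay within the range of the tumours with MSC, and the log2 change was 0.16 ± 0.11 (95% interval -0.06 to 0.37, edgeR adjusted p = 0.406). EIF2AK3, which encodes PERK, was at 7.83, 7.16, 11.2 and 8.17 CPM without MSC and 9.49, 9.04, 11.7, 11.004 and 10.6 CPM with MSC. Tumour 12 without MSC was above 4 of the 5 tumours with MSC, and the log2 change was 0.28 ± 0.16 (edgeR adjusted p = 0.311).

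ERN1, which encodes IRE1, was barely detected, with 0 to 43 counts per tumour. It was at 0.198, 0.163, 0 and 0.367 CPM without MSC and 0.712, 0.610, 0.555, 0.867 and 0.600 CPM with MSC. The groups did not overlap, tumour 12 had no count, and the log2 change of 1.78 ± 0.68 did not pass (edgeR adjusted p = 0.109). Per kilobase of exon, which allows levels of different genes to be compared, CALR was the highest of the 36 genes at 306 CPM per kb, followed by HSP90B1 at 179, P4HB at 152, MANF at 148 and HSPA5 at 113. XBP1 stood at 56.3, ATF6 at 4.68, EIF2AK3 at 1.98 and ERN1 at 0.0462 CPM per kb, so each of the 3 sensors was far below these abundant folding genes in level per kilobase.

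**Figure D3:**
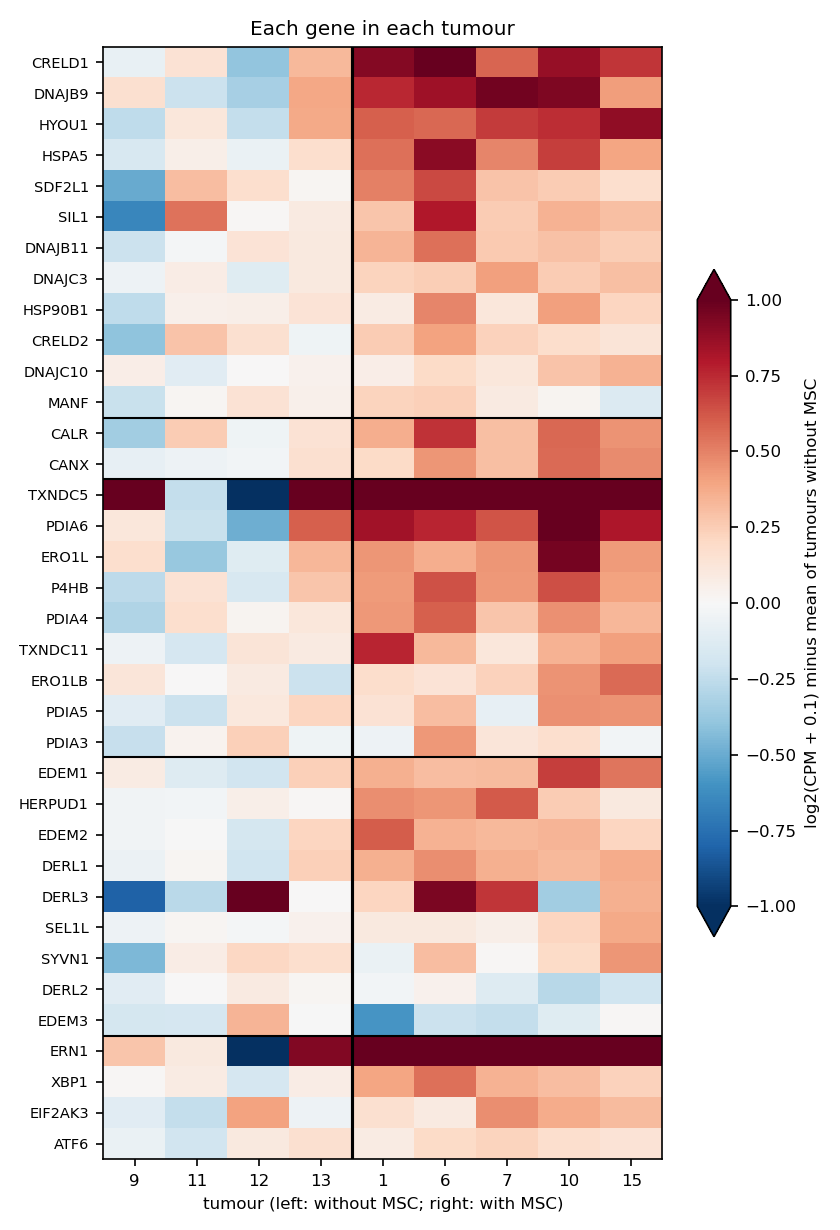
Each of the 36 genes (rows, by function) in each tumour (columns), as log2(CPM + 0.1) minus the mean of the 4 tumours without MSC, with the scale clipped at -1 and 1. The tumours with MSC, on the right, are red in most rows. TXNDC5, ERN1 and DERL3 have low counts and run past the scale, and CRELD1 in tumour 6 lies just past it.

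Summed over the 36 genes, tumours with MSC had 4113, 4879, 4088, 4623 and 4172 CPM (tumours 1, 6, 7, 10 and 15), and tumours without had 2916, 3478, 3292 and 3693 CPM (tumours 9, 11, 12 and 13). The means were 4375 ± 356 and 3345 ± 329.6 CPM, a ratio of 1.31. The sums did not overlap, but they are mainly those of CALR, HSP90B1, HSPA5, CANX and P4HB, which took 60.2% of the total. Tumour 6 was the highest of the 9 for 13 genes, and tumour 9 was the lowest for 17. Tumour 12 was mixed, being the lowest of the 9 for 10 genes and the highest for 3, while tumour 13 was the highest of the tumours without MSC for 18 of the 36. For 21 of the 36 genes every tumour with MSC was above every tumour without, against 5.13% of all genes tested. These are the 14 genes called and DNAJB11, DNAJC3, DNAJC10, ERO1LB, SEL1L, EDEM2 and ERN1. Scaling by library size alone left 11 such genes, and the share of all genes was not counted with that scaling.

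**Figure D4:**
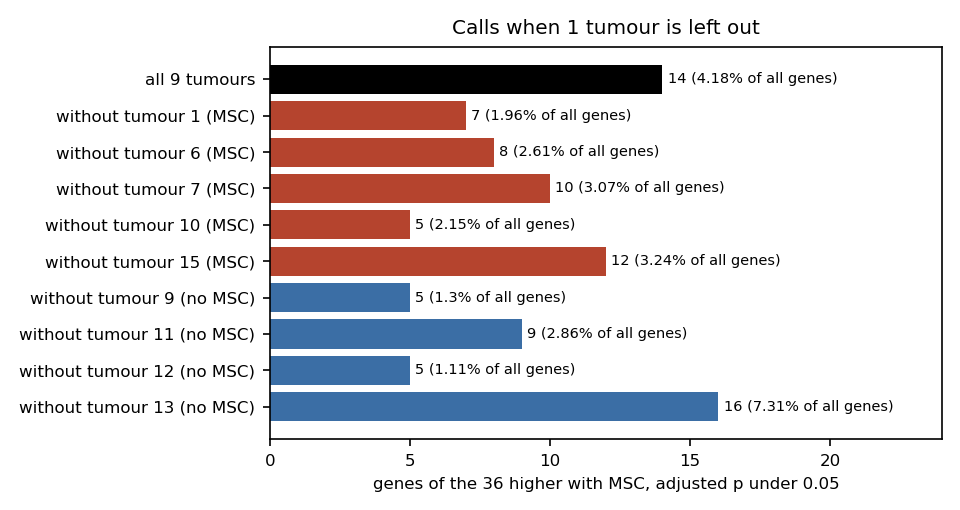
Number of the 36 genes higher with MSC (edgeR adjusted p under 0.05) with all 9 tumours and with each tumour left out, with the share of all tested genes higher in the same fit beside each bar. The count runs from 5, without tumour 10, 9 or 12, to 16, without tumour 13.

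Genes that work beside the 36 were counted from 9 further lists, of which 124 genes were tested. Over all of them 14 rose and 0 fell, or 11.3%, against 4.18% of all genes higher, and 94 of the 124 changes were positive with a median of 0.19. The lists, like the 36 genes, were chosen with earlier results of these data known, so their shares are not independent support. Counts differed between the lists, and these differences were not tested. When 1 tumour was left out, 3 of the 14 genes kept the call in all 9 fits, and the other 11 kept it in 2 to 8 of them. With the correction for GC content and length QSOX1, VKORC1, ITPR3, CREB3L1 and CREB3L2 no longer passed, ITPR3 and CREB3L2 also did not with library size only, and limma-voom did not call these 2 or DDIT3. In ER calcium handling 4 of 14 rose (median 0.30): CALU, the calcium-binding protein calumenin, at 134 ± 9.40 against 84.2 ± 21.9 CPM (log2 0.67 ± 0.13, edgeR adjusted p = 0.00664), NUCB1, a calcium-binding protein of the Golgi (0.65 ± 0.13), SDF4, which encodes the Golgi calcium-binding protein Cab45 (0.63 ± 0.14), and ITPR3, a calcium release channel (0.43 ± 0.12). Among 12 tested genes of other ER stress transducers and their proteases 3 rose (median 0.11). They were CREB3L1 (log2 0.50 ± 0.12) and CREB3L2 (0.43 ± 0.12), both membrane-bound transcription factors related to ATF6, and TMBIM6, a membrane protein that restrains IRE1 (0.45 ± 0.12).

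Among 14 genes of the ATF4 and PERK arm 2 rose, with a median of 0.31. PPP1R15A encodes GADD34, which ends the PERK signal, and was at 332 ± 69.6 CPM with MSC against 187 ± 52.1 without (log2 0.82 ± 0.18, edgeR adjusted p = 0.0157). DDIT3 encodes the transcription factor CHOP and was at 44.0 ± 7.50 CPM with MSC against 32.04 ± 2.57 without (log2 0.46 ± 0.13, edgeR adjusted p = 0.0368). ATF4 itself was at 855 ± 42.3 CPM with MSC and 889 ± 37.0 CPM without (log2 -0.06 ± 0.11).

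In N-glycan trimming 1 of 12 rose (median 0.31), PRKCSH, the beta subunit of glucosidase II, which releases glycoproteins from the calnexin cycle. Its level was 189 ± 22.1 against 114 ± 30.9 CPM (log2 0.72 ± 0.15, edgeR adjusted p = 0.0078) and was called in all 9 fits with 1 tumour left out, as were CALU and NUCB1. Of 15 other ER oxidoreductases 2 rose (median 0.16), QSOX1, a sulfhydryl oxidase (log2 0.59 ± 0.16), and VKORC1, the vitamin K epoxide reductase (0.47 ± 0.12). Of 8 ER prolyl isomerases PPIB, cyclophilin B, rose, with 174 ± 15.5 against 118 ± 25.7 CPM (log2 0.56 ± 0.13, edgeR adjusted p = 0.0126).

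Of 24 further degradation factors 0 passed in edgeR, 13 changes were positive and the median was 0.05. At an unadjusted p under 0.05, 5 were higher and 1 lower, while DESeq2 called 4 higher and limma-voom 1. All 4 genes of ER retrieval were positive (median 0.26) and 0 passed in edgeR. At an unadjusted p under 0.05, 3 of them were higher, and 0 by DESeq2 or limma-voom. Over all genes DESeq2 called 6.36% higher and limma-voom 2.99%, and the share at the unadjusted cut was not counted. Of 21 cytosolic chaperones 12 were positive with a median of 0.03, and 1 rose, the small heat shock protein HSPB1 (687 ± 237 against 378 ± 78.1 CPM, log2 0.86 ± 0.24, edgeR adjusted p = 0.0491), called in 3 of the 9 fits with 1 tumour left out.

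**Figure D5:**
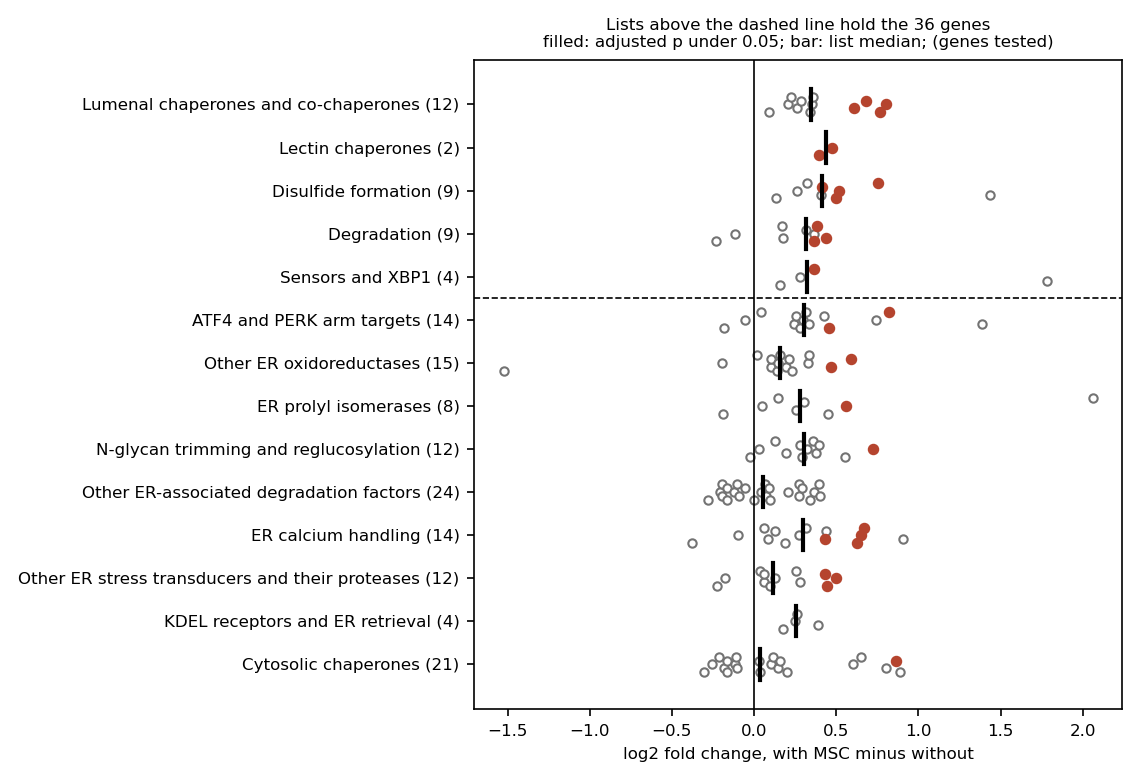
Log2 fold changes, with MSC minus without, of the genes in the 5 functional groups of the 36 genes (above the dashed line) and in 9 lists of genes that work beside them (below it); each point is a gene, filled where the edgeR adjusted p is under 0.05, and bars mark list medians. Medians of the 5 groups lie between 0.32 and 0.44, and those of the other lists between 0.03 and 0.31.

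Returning to the promoter sites printed above, 7 of the 11 genes with an exact ERSE or ERSE-II rose, HSPA5, HYOU1, CALR, CANX, PDIA6, HERPUD1 and XBP1, and the median log2 change of the 11 was 0.39. HSP90B1, CRELD2, SDF2L1 and ERO1LB carry such a site and did not pass. Of the 22 genes with a window and neither site, 6 rose, among them DNAJB9, CRELD1 and P4HB, and the median was 0.35. A further 18 tested genes carried one of the 2 sites in a window, and of these 2 rose (NUCB1 and SYNPO), 1 fell (SHCBP1) and 7 changes were positive, with a median of -0.06. A match describes the letters in the window and does not show that the site is bound in these cells.

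Depth and markers of other cell types were measured in the same libraries. Libraries with MSC held 29749909 to 50639082 gene counts and those without 24616792 to 65275226, and each of the 14 genes called had at least 211 counts in every tumour. Summed markers of MDA-MB-231 cells, mostly VIM, were 10298 to 15838 CPM with MSC and 9427 to 10539.5 CPM without. None of the 9 libraries is of MSC alone, so these markers were not shown to be particular to the cancer cells. Of these 7 markers 3 rose (CD44, log2 0.61 ± 0.13, AXL, 0.53 ± 0.12, and KRT8, 0.46 ± 0.13), 6 changes were positive and the median was 0.35, close to the median of the 36 genes. The luminal genes ESR1, PGR and FOXA1 were under 1 CPM in all 9. Summed over 12 fibroblast and MSC markers, the level was 23.5 to 123 CPM with MSC and 18.4 to 26.7 CPM without, with PDGFRA, POSTN, THY1 and CXCL12 under 1 CPM in all tumours. Tumour 15 had the 123 CPM. All 6 of these markers tested had a positive change, with a median of 0.70, and COL1A2 rose (1.21 to 8.45 CPM with MSC against 0.528 to 0.699 CPM without, log2 2.41 ± 0.51, edgeR adjusted p = 0.0104), also without tumour 15 (log2 1.61, edgeR adjusted p = 0.0417). Without tumour 15, 12 of the 36 genes rose, against 3.24% of all genes higher. The median change of all 36 in that fit was 0.38. Immune markers summed to 137 to 208 CPM with MSC and 94.2 to 137 CPM without, nearly all of it CD68. CD68 rose (131 to 202 against 88.4 to 131 CPM, log2 0.52 ± 0.15, edgeR adjusted p = 0.0371), a call made in 4 of the 9 fits with 1 tumour left out. CSF1R, the other immune marker tested, had a log2 change of 0.01 ± 0.28 (edgeR adjusted p = 0.988). PTPRC reached 3.58 CPM in tumour 1 with MSC and at most 0.198 CPM without, while CD163, ITGAM, CD3E and FCGR3A were under 1 CPM in all tumours. Plasma cells, which hold an expanded ER, had IGJ, TNFRSF17, MZB1 and IGLL5 under 1 CPM in all tumours, and the list's sum of 77.7 to 132 CPM with MSC and 66.7 to 97.9 CPM without came from SDC1, which epithelial cells also express. Endothelial markers summed to 7.10 to 12.4 CPM with MSC and 10.2 to 13.6 CPM without (CDH5, TEK and VWF under 1 CPM in all), smooth muscle markers to 6.04 to 11.8 and 8.93 to 13.4 CPM, and adipocyte markers to 0.262 to 4.03 and 0.290 to 0.752 CPM. Of these lists PECAM1 (log2 -0.94 ± 0.19) and ACTG2 (log2 -1.003 ± 0.27) fell. SDC1 did not pass (log2 0.25 ± 0.14, edgeR adjusted p = 0.281). Whether the markers that rose with MSC (CD44, AXL, KRT8, COL1A2 and CD68) have a part in the changes of the 36 genes was not tested.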

How the data were processed

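Polysome-associated RNA of 9 xenograft tumours (5 with MSC, 4 without) was sequenced. The deposited tables hold raw gene counts, not normalized by the authors. Per the submitters' processing notes, TopHat 1.4.0, HTSeq and CASAVA 1.8.1 were used with the build hg19. The sources used here do not give the annotation, counting settings, use of strand or removal of mouse reads, so overlapping genes, pseudogenes and conserved mouse RNA can alter counts.

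Lines naming no gene (10.2 to 12.1% of counts) were left out. Of 21619 genes, 13458 passed edgeR's filterByExpr and were fitted together with TMM factors and glmQLFit (robust=TRUE) in edgeR 4.0.16, R 4.3.3, with Benjamini-Hochberg adjustment over all of them at 0.05. The SE is the log2 change divided by the square root of F, and 95% intervals are normal intervals from it. Every pair of libraries within a group differed by more than sampling noise (chi-square over its degrees of freedom at least 24.0). Tested on simulated data for this comparison (13267 genes), edgeR recovered 29 of 66 simulated 1.5-fold changes, 53 of 67 of 2-fold and 60 of 67 of 4-fold, and called 4 of 13258 unchanged genes. The simulation drew each gene independently, so shifts shared by many genes within a tumour were not in it. Of the 14 members called, 9 changed by less than 1.5-fold.

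The members and all gene lists were chosen with earlier results of these data known. Genes given in every tumour were called members over 100 CPM, the sensors, and members whose call rests on 1 library, and up to 4 genes of smallest p were taken from each further list. HYOU1, DNAJB9, CRELD1, PDIA6, HSP90B1, TXNDC5 and ATF4 were added after their values were seen. A few list genes are not reported here. One gene of the further lists has no row of that symbol in the tables. Tools tried as alternatives were DESeq2 1.42.0 and limma-voom 3.58.1 with quality weights. Scaling by library size only or by DESeq2's factors, robust=FALSE, no filter, a minimum of 5 CPM in 4 libraries, counts thinned to the smallest library, and each tumour left out were tried in edgeR. A spline correction for GC content and length (4 degrees of freedom, values for 95.7% of genes) and a fit without tumours 15 and 12 were added after seeing the data. Exon lengths came from GENCODE 29 and promoter windows from RefSeq GRCh38.p14, both matched by symbol. No coordinate of the authors' build was used.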

Additional observations from a re-analysis of the deposited data

Results flagged for a closer look

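A tumour was set apart where its gap to the nearest tumour of its group was large for the group's range (Dixon's test at 95%), which chance alone does in about 1 of 20 groups. Of 90 groups checked, 7 were set apart. Among the 36 genes, tumour 6 with MSC was the highest of its group for SIL1 at 56.1 CPM and for DNAJB11 at 96.0 CPM, and the lowest for TXNDC5 at 3.44 CPM. Tumour 10 with MSC was the highest for ERO1L at 103 CPM. Among the marker sums, tumour 15 with MSC was the highest for fibroblast and MSC markers at 123 CPM and for adipocyte markers at 4.03 CPM. Tumour 11 without MSC was the highest for adipocyte markers at 0.752 CPM.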

How the results depend on the processing

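The 34 positive and 2 negative changes kept their sign in every one of the 19 alternatives that tested the gene. The number of members higher was 14 with all tumours, where 4.18% of all genes were higher. Under the other scalings, filters and tools it was 11 to 16, and that share was 2.84% to 6.6%. The counts of 16 came with DESeq2 (6.36%) and the minimum of 5 CPM (6.6%). The number of members higher was 5 to 16 when 1 tumour was left out (1.11% to 7.31%), and 6 without tumours 15 and 12 together (1.49%). The number lower was 0 in all of these fits. The median log2 change stayed between 0.33 and 0.38. Members without overlap between groups numbered 21 to 23 when 1 tumour was left out and 11 with library size only. The share of all genes without overlap was not counted in these settings. The log2 ratio of the summed level was 0.33 to 0.44 when 1 tumour was left out. HSPA5, HYOU1, DNAJB9, CRELD1 and PDIA6 were called in all 19 alternatives. Of the genes not called, DNAJB11 and EDEM2 passed in at least 1. The GC correction would also remove a true difference that follows GC content or length. DERL3, ERN1, ERO1LB and TXNDC5 are limited by low counts, and DERL3, ERN1 and ERO1LB were not tested under the filter of 5 CPM. No paired analysis was possible because the groups share no replicate numbers.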

Other observations

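Of the 18 tested genes outside the 36 with an exact ERSE or ERSE-II in a RefSeq window, those with the largest positive changes included FICD, which modifies BiP (log2 1.19 ± 0.39, edgeR adjusted p = 0.0659), ALG12, a mannosyltransferase of the ER (0.61 ± 0.19, edgeR adjusted p = 0.0522), NUCB1 (0.65 ± 0.13, edgeR adjusted p = 0.00699) and SYNPO, an actin-binding protein (0.66 ± 0.19, edgeR adjusted p = 0.0368). SERP1, a stabiliser of membrane proteins in the ER, had a log2 change of -0.03. SHCBP1 fell by 0.51 on the log2 scale (edgeR adjusted p = 0.0242). These genes were named after their values were seen.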
